A study of Homo sapiens with 8 samples.

Results

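The S phase and DNA replication genes described here are 52 genes that license replication origins, build and protect the fork, supply nucleotides and drive the passage from G1 into S phase. They were picked by symbol out of 61228 genes in a table of RNA sequencing counts from MDA-MB-231, a line of human breast cancer cells that lacks the oestrogen and progesterone receptors. All 52 passed the filter on low counts, as did 15568 genes in all, which were tested. The table holds 8 libraries in 4 groups of 2. Knockout cells had been nucleofected with Cas9 and guides against ETV1, ETV4 and ETV5, which encode ETS transcription factors of the PEA3 subfamily. They were grown in droplets of collagen I (knockout gels) or on plastic (knockout monolayers). Control cells had a control guide and grew in the same 2 ways. The label of the control gels names Cas9 and that of the control monolayers does not, so a knockout effect in monolayers, a gel effect in control cells and any difference between them cannot be told apart from an effect of Cas9. All cultures had the same serum medium. Gels were digested with collagenase I and the cells frozen before RNA was extracted, whereas monolayers were lysed directly, so culture and handling cannot be told apart. No label used here states whether the knockout cells are clones, how long they were cultured, which collagen concentration each gel had, or whether replicates were separate cultures. The p-values therefore cover the spread between these libraries, which may be technical.

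DNA replication starts in G1, when the origin recognition complex, CDC6 and CDT1 load the MCM helicase onto DNA, and goes on in S phase, when CDC45, the GINS complex and MCM10 turn that helicase on and polymerases copy the strands. Transcription of many of these genes is held back by RB and its relatives and released through E2F factors late in G1, so that their messages are more abundant in cells entering and crossing S phase than in resting cells. In bulk RNA, a larger share of cells in S phase and more RNA per cell cannot be told apart.

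The promoters are shown first, because E2F factors read letters in them. RefSeq windows (GRCh38.p14), from 250 bases before to 50 bases after a start site, were found for 45 members, 57 windows in all. The letters searched on both strands were TTTCCCGC, TTTGGCGC, TTTCGCGC and TTTGCCGC, which E2F factors can bind. They were in 24 member windows (42.1%), belonging to 23 members, against 1164 of 35116 windows of all genes (3.31%) and 779 of 16030 windows of tested genes (4.86%). CCAAT, the letters read by NF-Y, was in 59.6% of member windows, against 34.6% of all windows. TTTGAA or TTCGAA, the CHR element common in genes of G2 and mitosis, was in 3.51% of member windows, against 16.4% of all windows. CCGGAAGT, letters that ETS factors can bind, was in 3 member windows (5.26%), against 4.14% of all windows and 7.24% of windows of tested genes. The match is a description of letters and not of binding. The 170 bases before the start are printed for 4 members that the results name, 5′ to 3′ on the strand of the gene. Capitals mark the E2F letters and, in POLA1, also the ETS letters. The stretches are chr16:88803619-88803788 (plus strand) for CDT1, chr1:23531234-23531403 (minus strand) for E2F2, chrX:24693748-24693917 (plus strand) for POLA1 and chr19:4909331-4909500 (plus strand) for UHRF1, in 1 of its 3 windows.
CDT1: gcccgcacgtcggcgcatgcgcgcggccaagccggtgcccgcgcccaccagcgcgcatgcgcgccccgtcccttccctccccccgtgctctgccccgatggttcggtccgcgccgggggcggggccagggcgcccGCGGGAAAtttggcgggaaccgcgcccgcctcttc
E2F2: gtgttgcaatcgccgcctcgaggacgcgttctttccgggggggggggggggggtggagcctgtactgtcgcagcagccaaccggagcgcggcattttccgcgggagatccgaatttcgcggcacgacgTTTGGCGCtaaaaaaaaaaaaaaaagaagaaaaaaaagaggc
POLA1: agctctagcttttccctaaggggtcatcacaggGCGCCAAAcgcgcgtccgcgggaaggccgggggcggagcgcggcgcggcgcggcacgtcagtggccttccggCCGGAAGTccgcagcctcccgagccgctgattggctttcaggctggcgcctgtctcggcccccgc
UHRF1: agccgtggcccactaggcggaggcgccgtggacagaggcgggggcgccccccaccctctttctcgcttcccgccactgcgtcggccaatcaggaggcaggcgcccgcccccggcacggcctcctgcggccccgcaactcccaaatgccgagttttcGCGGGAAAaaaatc

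Library totals ran between 15824504 and 23896899 counts. The lowest count of any member in any library was 84, for POLA2, and the median over members of their lowest count was 1170. VIM, a mesenchymal marker of this line, stood at 5284 to 7407 CPM (counts divided by the TMM-scaled library size), while ESR1 and PGR stood at 0 to 0.0805 CPM and CDH1 at 0.0548 to 0.382 CPM. Other genes of the same luminal list were expressed, with KRT19 at 399.9 to 727 CPM, XBP1 at 64.0 to 78.8 CPM and GATA3 at 7.53 to 12.7 CPM. ETV1 fell in knockout gels (138 and 141 CPM, against 222 and 217 CPM in control gels, log2 fold change -0.66, edgeR adjusted p = 3.1e-12) and in knockout monolayers (136 and 151 CPM, against 200 and 205 CPM in control monolayers). ETV4 also fell in both cultures, and ETV5 did not pass the test in either (adjusted p = 0.808 in gels and 0.718 in monolayers by edgeR). Message that carries an edit can still be counted, so these levels check the labels only in part. The 10 luminal markers summed to 500.1 to 521 CPM in knockout gels, against 801 to 843 CPM in control gels, and 4 of 7 tested were lower and 1 higher. The 8 mesenchymal markers of the line summed to 10902 to 10978 CPM in knockout gels, against 12406 to 12754 CPM in control gels. The 9 leukocyte markers summed to 5.97 to 6.43 CPM in knockout gels, against 9.46 to 11.8 CPM in control gels, with MS4A1 at 0 in all libraries. The 13 mitochondrially encoded genes, whose share can follow RNA quality, took 2.29 to 3.94% of counts. None passed in any comparison, but all 13 were negative for knockout against control in gels (median log2 -0.22) and positive in monolayers (median 0.18). Their interaction was negative in 13 of 13 (median -0.38), and gels against monolayers gave a median of -0.43 in knockout cells and -0.03 in control cells. The part of these markers and transcripts in the results was not tested.

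The replication genes were most abundant in knockout gels and least abundant in control monolayers. They took 0.649 and 0.656% of all counts in knockout gels and 0.568 and 0.565% in control gels. On plastic they took 0.532 and 0.519% in knockout monolayers and 0.502 and 0.489% in control monolayers, so no group overlapped another. Of the 52 members, 48 had their highest mean in knockout gels. The means of 36 members (69.2%) fell in the order knockout gel, control gel, knockout monolayer, control monolayer, as did those of 2105 of all 15568 tested genes (13.5%). In 23 of the 36, among them ORC1, MCM3, PCNA, FEN1, RRM2, TYMS and UHRF1, the libraries of neighbouring groups did not overlap either. That separation and the place of the highest mean were not counted over all tested genes. Between knockout and control alone, 61.7% of all tested genes did not overlap in gels and 56.9% in monolayers.

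**Figure D1:**
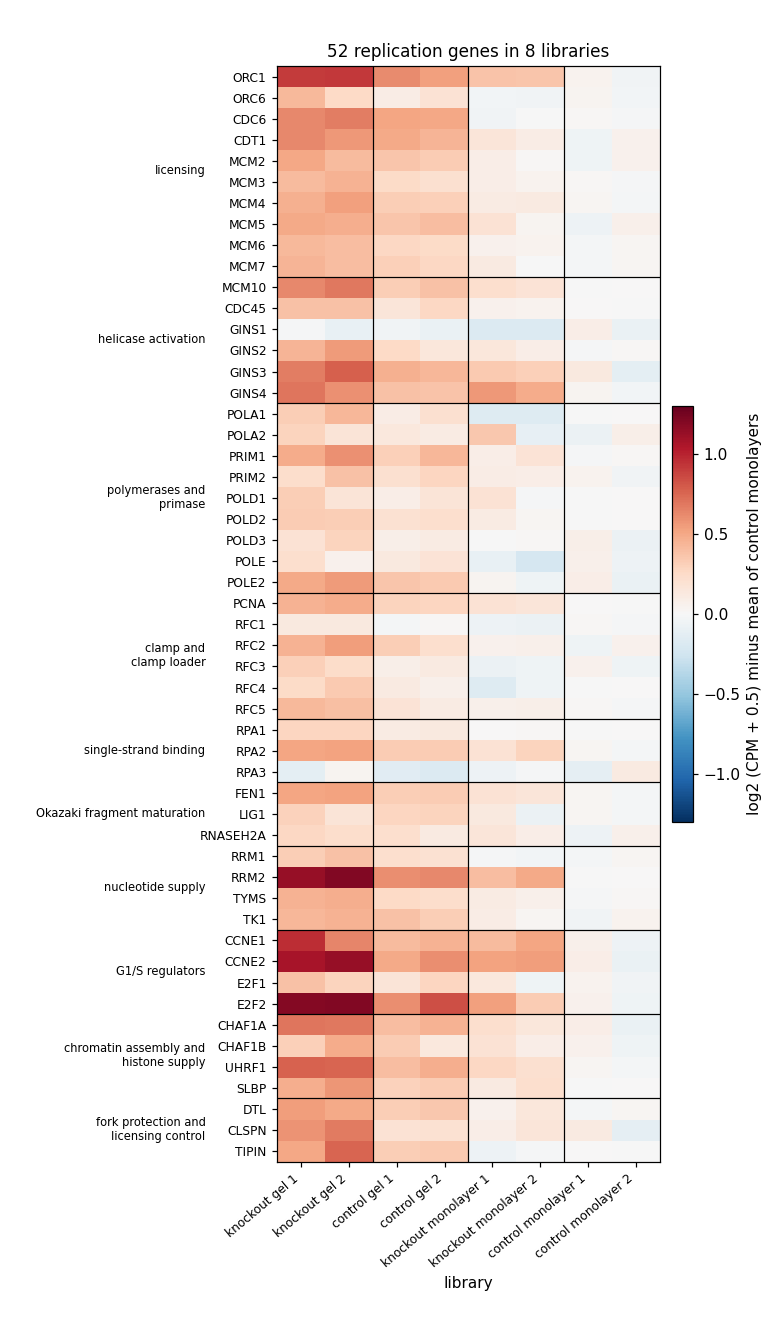
Level of each of the 52 replication genes (down the page, by role) in each of the 8 libraries (across), as log2(CPM + 0.5) minus the gene's mean in control monolayers, with red for higher and blue for lower. The knockout gels hold the highest mean for 48 genes, which was not counted over all tested genes. RPA3 and GINS1 are among the exceptions to the common pattern.

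In gels, knockout cells held more message for many genes of origin licensing, the clamp and its loader, nucleotide supply and cyclins E. Of the 52 members, 32 rose in knockout gels against control gels and 0 fell (edgeR quasi-likelihood test, Benjamini-Hochberg adjusted p under 0.05), beside 11.5% of all tested genes that rose and 12.4% that fell (23.9% in either direction). In 46 members the groups did not overlap, beside 61.7% of all tested genes. The median log2 fold change was 0.18 over the members and 0.00 over all tested genes, and 50 members had a positive value. The changes were small, from 0.13 (MCM7) to 0.56 (CCNE2) among members that passed. Of licensing, clamp and loader, nucleotide and cyclin E genes, only ORC1, MCM3, RFC5, RRM2, TYMS and CCNE2 passed under all 16 alternatives. Leaving out 1 library mattered, since 29 members rose without knockout gel 1, 17 without knockout gel 2 or control gel 1, and 16 without control gel 2, and 13 of the 32 passed under all 16 alternatives.

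Among the licensing genes, 7 of 10 rose in knockout gels. ORC1 (chr1:52372829-52404459, minus strand), the largest subunit of the origin recognition complex, had 46.5 and 46.6 CPM in knockout gels and 37.8 and 35.7 CPM in control gels. Its groups did not overlap, and the log2 fold change was 0.34 ± 0.071 (SE, n = 2 each, edgeR adjusted p = 0.000453). CDC6, the loader ATPase, had 154 and 158 CPM in knockout gels and 143 and 141 CPM in control gels, a small separation with a log2 fold change of 0.14 (edgeR adjusted p = 0.04). CDT1, its partner in loading, had 123 and 117 CPM in knockout gels and 111 and 107 CPM in control gels. Those values did not overlap either but did not pass the test (edgeR adjusted p = 0.0751). Of the helicase subunits, MCM3, MCM4, MCM6 and MCM7 passed. MCM3 had 395 and 406 CPM in knockout gels and 353 and 342 CPM in control gels. MCM2 (160 and 150 CPM in knockout gels, 146 and 142 CPM in control gels) and MCM5 (147 and 145 CPM, against 134 and 138 CPM) were separated but did not pass.

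Among the helicase activation genes, 4 of 6 rose. MCM10 (chr10:13161554-13211104, plus strand), which helps to switch the loaded helicase on, had 77.3 and 81.0 CPM in knockout gels and 62.5 and 65.1 CPM in control gels, a log2 fold change of 0.31 ± 0.06 (SE, n = 2 each, edgeR adjusted p = 0.000169). Not all GINS subunits passed. GINS4 had 101 and 94.7 CPM in knockout gels, above the 81.2 and 81.0 CPM in control gels (log2 0.27, edgeR adjusted p = 0.000506), and GINS2 and GINS3 also rose. GINS1, a subunit of the same complex, had 47.5 and 44.8 CPM in knockout gels and 46.4 and 45.3 CPM in control gels, which overlapped.

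Of the polymerase and primase subunits, 1 of 9 rose. That one was POLA1 (chrX:24693919-24996986, plus strand), the catalytic subunit of polymerase alpha, which starts each new strand with primase. It had 48.9 and 53.0 CPM in knockout gels and 41.8 and 45.4 CPM in control gels, a log2 fold change of 0.23 ± 0.069 (SE, n = 2 each, edgeR adjusted p = 0.0146). POLE, the catalytic subunit of the leading strand polymerase, had 109 and 97.2 CPM in knockout gels and 103 and 106 CPM in control gels, which overlapped. Of the clamp and its loader, 5 of 6 genes rose. RFC5, a loader subunit, had 94.9 and 92.8 CPM in knockout gels and 79.8 and 75.8 CPM in control gels (log2 0.27, edgeR adjusted p = 0.000476). PCNA, the sliding clamp itself, had 219 and 224 CPM in knockout gels and 197 and 195 CPM in control gels. RFC1, the large subunit of the loader, was the member of this role that did not pass.

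RPA, the complex that coats single-stranded DNA, had 2 of 3 subunits that rose. RPA2 had 90.1 and 90.4 CPM in knockout gels and 79.4 and 79.2 CPM in control gels, tight values that gave a log2 fold change of 0.19 (edgeR adjusted p = 0.0158). RPA3, the smallest subunit, had 27.0 and 30.4 CPM in knockout gels and 26.6 and 26.0 CPM in control gels, and did not pass in any comparison. Of the genes that join Okazaki fragments, FEN1, the flap nuclease, rose, with 249 and 251 CPM in knockout gels and 218 and 219 CPM in control gels (log2 0.20, edgeR adjusted p = 0.00166). LIG1, the ligase, had 116 and 106 CPM in knockout gels and 115 and 116 CPM in control gels, which overlapped, and RNASEH2A did not pass.

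Nucleotide supply and the G1/S regulators held the 3 largest changes, in CCNE2, RRM2 and E2F2. RRM2 (chr2:10120698-10131419, plus strand), the small subunit of ribonucleotide reductase and the one whose level follows S phase, had 396 and 417 CPM in knockout gels and 275 and 280 CPM in control gels. The groups lay far apart, with a 1.47-fold difference (log2 0.55 ± 0.047, SE, n = 2 each, edgeR adjusted p = 2.03e-11). The large subunit RRM1 also rose, with 286 and 298 CPM in knockout gels and 266 and 263 CPM in control gels. TYMS, which makes thymidylate, had 383 and 389 CPM in knockout gels and 337 and 330 CPM in control gels (log2 0.21, edgeR adjusted p = 0.000475), and TK1 did not pass. CCNE2, a cyclin E that activates CDK2, had 46.9 and 48.8 CPM in knockout gels and 31.3 and 33.7 CPM in control gels, a log2 fold change of 0.56 ± 0.074 (SE, n = 2 each, edgeR adjusted p = 4.2e-07). CCNE1, the other cyclin E, was scarcer and also rose, with 12.3 and 9.73 CPM in knockout gels and 8.26 and 8.5 CPM in control gels. E2F2 (chr1:23506430-23531220, minus strand) had 23.5 and 23.7 CPM in knockout gels and 15.4 and 18.2 CPM in control gels (log2 0.49 ± 0.10, edgeR adjusted p = 0.000294). E2F1, an activator of the same family, had 97.5 and 90.8 CPM in knockout gels and 83.6 and 90.2 CPM in control gels. It did not pass.

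Chromatin and fork protection genes rose with few exceptions, 3 of 4 and 3 of 3. UHRF1 (chr19:4903080-4962154, plus strand), which brings the maintenance methyltransferase to new DNA, had 201 and 199 CPM in knockout gels and 155 and 163 CPM in control gels (log2 0.33 ± 0.049, edgeR adjusted p = 3.36e-06). CHAF1A, a subunit of the factor that sets histones on new DNA, had 139 and 138 CPM in knockout gels and 113 and 117 CPM in control gels (log2 0.27, edgeR adjusted p = 0.000421). SLBP, which binds histone messages, rose, while CHAF1B did not pass. CLSPN (chr1:35720218-35769967, minus strand), which passes the checkpoint signal from ATR to CHK1 at the fork, had 187 and 199 CPM in knockout gels and 142 and 143 CPM in control gels. That was a log2 fold change of 0.44 ± 0.059 (SE, n = 2 each, edgeR adjusted p = 2.32e-06). DTL, part of the ligase that removes CDT1 in S phase, and TIPIN, a fork protection factor, also rose.

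**Figure D2:**
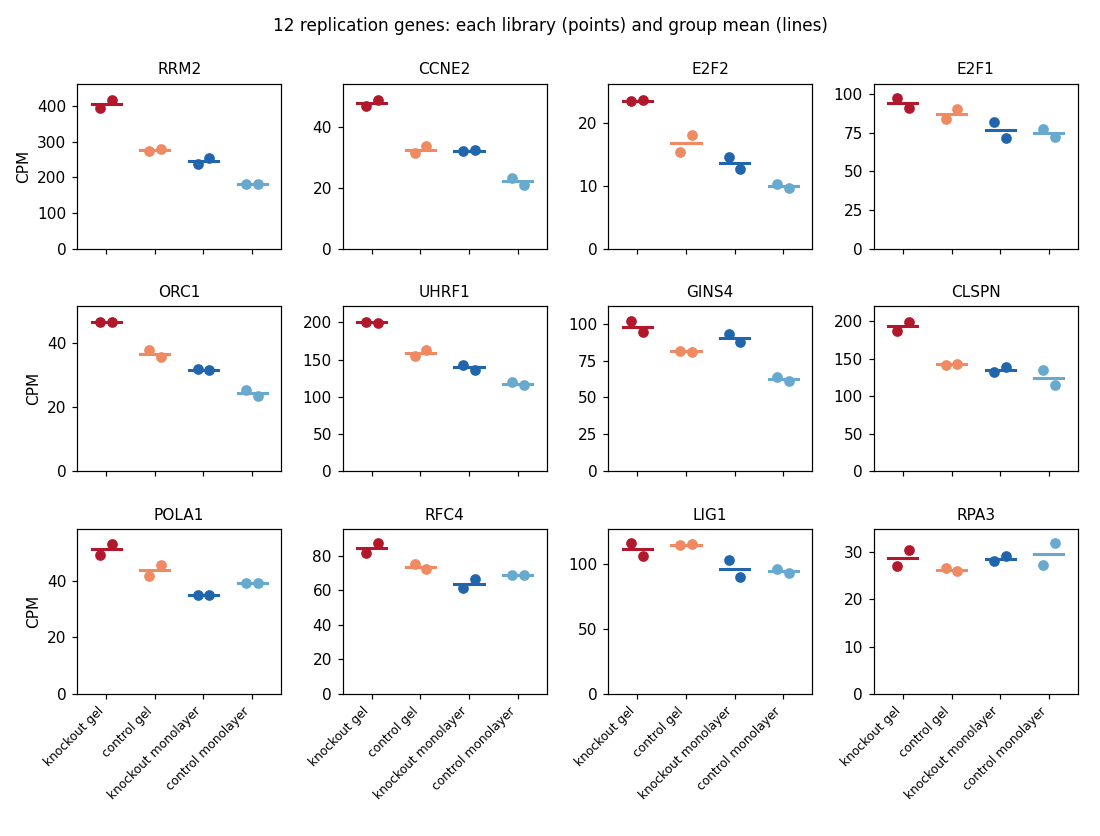
CPM in each library (1 point each) of 12 members, by group, with a line at the group mean. RRM2 has 396 and 417 CPM in knockout gels, above all other libraries, whose highest value is 280 CPM, while the knockout gels and control gels overlap for LIG1.

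On plastic, fewer replication genes passed. Of the 52, 14 rose in knockout monolayers against control monolayers and 0 fell, beside 9.6% of all tested genes that rose and 9.6% that fell (19.2% in either direction). In 37 members the groups did not overlap, beside 56.9% of all tested genes. The median log2 fold change was 0.09 over the members and 0.01 over all tested genes, and 39 members had a positive value. Activation of the helicase gave 3 of 6, the G1/S regulators 3 of 4 and chromatin 3 of 4. Licensing (ORC1), the clamp and its loader (PCNA), RPA (RPA2), Okazaki fragment joining (FEN1) and nucleotide supply (RRM2) gave 1 each. The polymerases and fork protection gave 0. The median was 0.042 without knockout monolayer 1 and 0.044 once length and GC content were corrected for. In 10 of 16 alternatives 1 or 2 members were lower, among POLE, GINS1 and RFC4. The count of members that rose was 9 by DESeq2, 7 without knockout monolayer 1 and 9 without control monolayer 2. ORC1, GINS4, RRM2, CCNE2 and UHRF1 passed under all 16 alternatives.

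GINS4 had 92.7 and 87.5 CPM in knockout monolayers and 63.8 and 61.1 CPM in control monolayers, a log2 fold change of 0.53 ± 0.059 (SE, n = 2 each, edgeR adjusted p = 2.16e-08). CCNE2 had 32.0 and 32.3 CPM in knockout monolayers and 23.3 and 20.8 CPM in control monolayers (log2 0.53, edgeR adjusted p = 7.41e-06). Both were well separated, and the change in CCNE2 was near that in gels. RRM2 had 238 and 254 CPM in knockout monolayers and 180 and 181 CPM in control monolayers, a 1.36-fold difference (log2 0.44 ± 0.048, edgeR adjusted p = 9.06e-09). ORC1 had 31.9 and 31.7 CPM in knockout monolayers and 25.4 and 23.6 CPM in control monolayers (log2 0.37, edgeR adjusted p = 0.000716). UHRF1 had 142 and 136 CPM in knockout monolayers, above the 119 and 116 CPM in control monolayers (log2 0.24, edgeR adjusted p = 0.000658). Among members that did not pass, CDC6 had 96.7 and 99.4 CPM in knockout monolayers and 101 and 98.6 CPM in control monolayers, which overlapped.

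**Figure D3:**
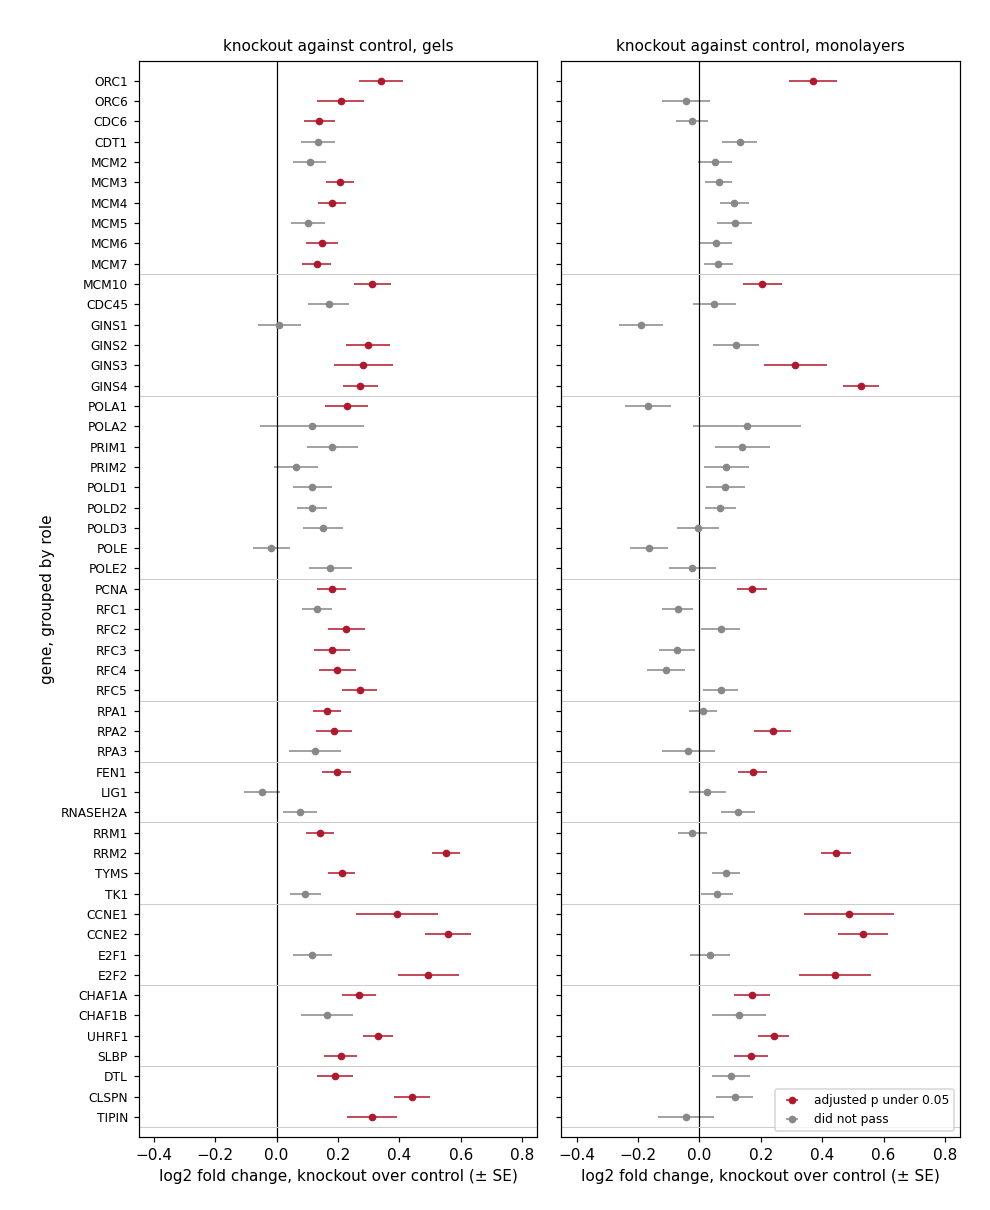
Knockout minus control log2 fold change of each of the 52 members, by role, in gels and in monolayers. Bars are 1 SE from the fit of all libraries. Points are red where the edgeR adjusted p is under 0.05 and grey where it is not. In gels 50 values lie right of 0 and 32 members passed, and in monolayers 39 lie right of 0 and 14 passed.

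The 14 members that rose in monolayers also rose in gels, and 18 passed in gels alone, which does not show that their effects differ between cultures. These were ORC1, MCM10, GINS3, GINS4, PCNA, RPA2, FEN1, RRM2, CCNE1, CCNE2, E2F2, CHAF1A, UHRF1 and SLBP. The knockout effects in gels and in monolayers, which share no library, had a Pearson r of 0.695 and a Spearman rho of 0.520 across the 52 members, beside 0.456 and 0.409 across all tested genes. Genes are not independent replicates, so these describe the lists.

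**Figure D4:**
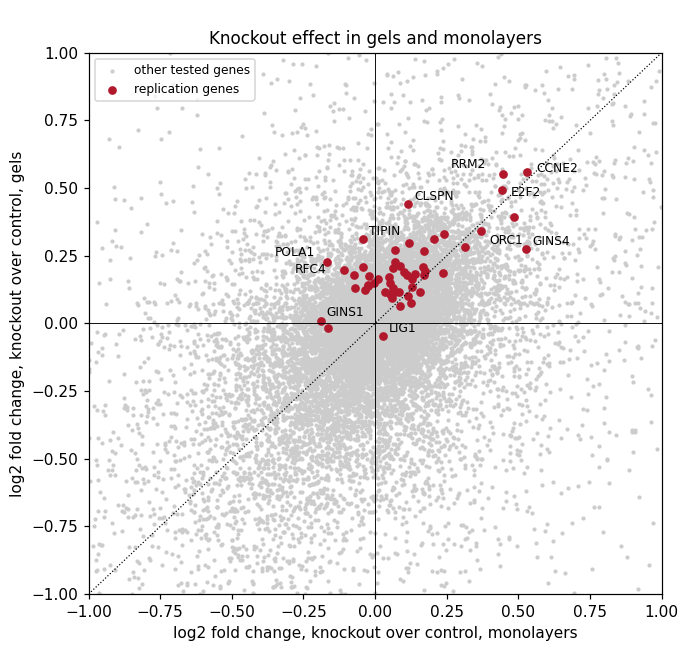
Knockout over control log2 fold change in gels (vertical axis) against that in monolayers (horizontal axis) for the 52 replication genes (red) and the other tested genes (grey), with axes drawn from -1 to 1 and a dotted line of equal change. RRM2, CCNE2, E2F2 and ORC1 lie high on both axes, while POLA1, RFC4 and TIPIN are above 0 in gels and below 0 in monolayers.

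Tested directly, the log2 knockout effect was higher in gels than in monolayers for 3 members (POLA1, RFC4 and CLSPN) and lower for 0. It was higher for 2.67% of all tested genes and lower for 3.94% (6.6% in either direction). Higher and lower refer to signed log2 values and not to the size of the change. POLA1 had 34.8 and 34.9 CPM in knockout monolayers, below the 39.0 and 39.3 CPM in control monolayers, the opposite order to gels (interaction log2 0.40 ± 0.10, edgeR adjusted p = 0.0119). RFC4 (chr3:186789880-186807058, minus strand), a clamp loader subunit, had 81.8 and 87.1 CPM in knockout gels and 75 and 72.3 CPM in control gels. It had 61.5 and 66.3 CPM in knockout monolayers and 68.8 and 69.0 CPM in control monolayers. Its groups were thus in opposite orders in the 2 cultures (interaction log2 0.31 ± 0.086, edgeR adjusted p = 0.0234). On plastic alone neither change passed, at log2 -0.17 for POLA1 (edgeR adjusted p = 0.11) and -0.11 for RFC4 (edgeR adjusted p = 0.24). CLSPN had 132 and 139 CPM in knockout monolayers and 135 and 114 CPM in control monolayers, which overlapped (interaction log2 0.33 ± 0.085, edgeR adjusted p = 0.0176). GINS4 went the other way without passing, with an interaction of log2 -0.25 (edgeR adjusted p = 0.0587). None of the 3 calls held throughout: all were lost without knockout gel 2 or control gel 1, CLSPN and RFC4 without control gel 2 or knockout monolayer 1, CLSPN without control monolayer 1, and RFC4 without control monolayer 2.

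Gels held more replication message than monolayers in both genotypes. In knockout cells 47 members rose in gels and 0 fell, beside 20.1% of all tested genes that rose and 17.9% that fell (38% in either direction). The median log2 fold change was 0.37 over the members and -0.01 over all tested genes, and in 49 members the groups did not overlap, beside 67.6% of all tested genes. In control cells 39 members rose and 0 fell, beside 16% of tested genes that rose and 10.7% that fell (26.7% in either direction). The medians were 0.28 over the members and 0.01 over all tested genes, and in 49 members the groups did not overlap, beside 64.4% of all tested genes. Scaling moved the split of calls over all genes. In control cells 59.8% of called genes were higher in gels, against 30.6% with library size alone and 43.4% with upper-quartile factors. In knockout cells these shares were 52.8%, 37.1% and 40.6%.

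RRM2 was 1.65-fold higher in gels among knockout cells (log2 0.72 ± 0.047, SE, n = 2 each, edgeR adjusted p = 2.25e-14) and also rose in gels among control cells (log2 0.62, edgeR adjusted p = 4.06e-12). Every gel library thus stood above every monolayer library for this gene. CDC6 also rose in gels, by a log2 fold change of 0.67 among knockout cells (edgeR adjusted p = 1.73e-12) and 0.51 among control cells (edgeR adjusted p = 1.94e-09), with no gel library below 141 CPM and no monolayer library above 101 CPM. E2F2 had the largest gel effects of all members, a log2 fold change of 0.79 ± 0.10 among knockout cells and 0.74 ± 0.11 among control cells. CDT1 rose by log2 0.47 in both genotypes. Of the polymerase and primase genes, 8 of 9 rose in gels among knockout cells and 4 of 9 among control cells, and the clamp and loader gave 6 of 6 and 2 of 6. GINS1, POLA2 and RPA3 passed in neither genotype.

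Levels per length, as CPM per kilobase of exon, spread widely between members. The mean over 8 libraries was lowest for POLA2, at 1.46, and highest for TYMS, at 195. POLA2 shares 2012 of its 3744 exon bases with another gene on its own strand, so its count and level are uncertain. PCNA stood at 129, FEN1 at 91.4 and TK1 at 87.3 CPM per kilobase. By this measure, subunits that act in equal number within a complex did not have equal levels. The length used is that of all annotated exons of a gene, not of the transcripts expressed here. Levels of different genes are therefore not strictly comparable. Among the subunits of the MCM helicase, MCM3 stood at 105 and MCM7 at 90.0 CPM per kilobase, above MCM4 at 52.8, MCM2 at 36.6, MCM5 at 35.3 and MCM6 at 31.1. GINS3, at 7.69 CPM per kilobase, was below GINS1, GINS2 and GINS4, at 14 to 15.2. RPA1 stood at 56.8, RPA2 at 38.0 and RPA3 at 13.2 CPM per kilobase. E2F1 (33.2 CPM per kilobase) was more abundant than E2F2 (3.09 CPM per kilobase), although E2F2 had the larger changes.

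**Figure D5:**
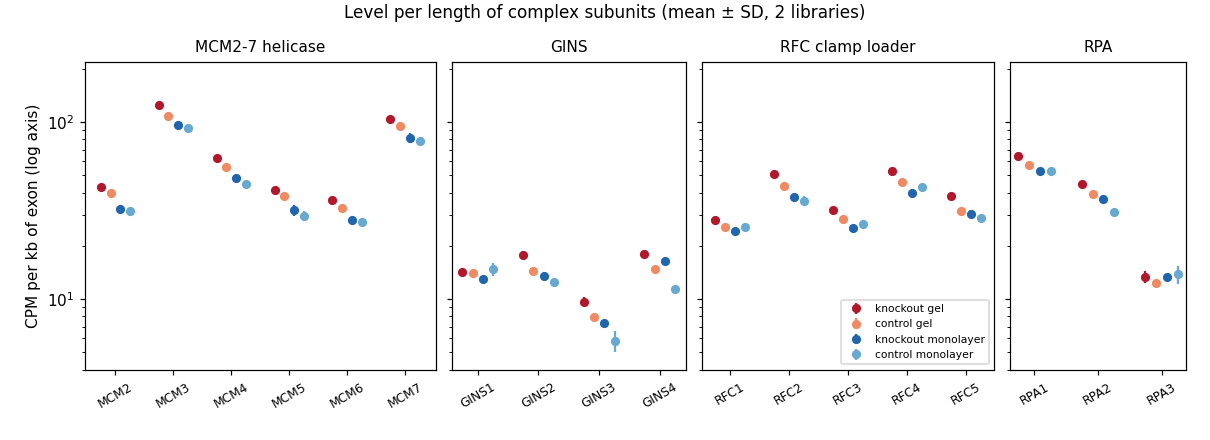
Level per length (CPM per kilobase of exon, log axis) of the subunits of the MCM, GINS, RFC and RPA complexes, by group, as the mean and SD of 2 libraries. MCM3 is above MCM6 and RPA1 above RPA3 in all 4 groups.

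Exons of 19 members overlap those of another gene. For TYMS and CCNE2 over 500 bases overlap genes on the other strand, and no source used here states the strand setting of the counting, so their counts are uncertain. INTS8, the partner of CCNE2, had 30.7 and 32.7 CPM in knockout gels and 27.4 and 25.6 CPM in control gels (log2 0.26, edgeR adjusted p = 0.0175). It did not pass in monolayers. ENOSF1, the partner of TYMS, fell in knockout gels (log2 -0.27, edgeR adjusted p = 0.00794), opposite to TYMS. MCM2 and GINS4 also overlap a gene on the other strand by over 500 bases. POLA2 and RRM2 overlap one on their own strand, by 2012 of 3744 and 1077 of 3859 exon bases. Their counts are therefore uncertain whatever the strand setting.

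Other genes of the pathway rose more often than they fell in knockout gels, but not throughout in knockout monolayers. There 1 gene rose and 3 fell in origin licensing and firing, 3 rose and 0 fell at the fork, 1 rose and 1 fell in nucleotide synthesis, and 2 rose and 2 fell among E2F and RB genes, beside 9.6% of all tested genes in each direction. Beside 11.5% of all tested genes, 6 of 17 further genes of origin licensing and firing rose in knockout gels, with DONSON, which helps GINS to join the helicase, at log2 0.39 (edgeR adjusted p = 0.000229). Of 18 further fork genes 11 rose and 1 fell, among them POLE4, a small subunit of polymerase epsilon, at log2 0.47 (edgeR adjusted p = 1.39e-05). Of 16 further nucleotide genes 7 rose, with SAMHD1, which breaks down deoxynucleotides, at log2 0.40 (edgeR adjusted p = 3.73e-06). SAMHD1 lowers the pool that RRM2 fills, so the list holds genes of opposite function. Of 11 further E2F and RB genes 5 rose and 1 fell. The one that fell was RBL2, a relative of RB that represses E2F targets in resting cells (log2 -0.35, edgeR adjusted p = 0.000535, and -0.24 with edgeR adjusted p = 0.0123 in monolayers).

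The counts that follow stand beside 11.5% of all tested genes that rose and 12.4% that fell in knockout gels. In knockout monolayers 9.6% of all tested genes rose and 9.6% fell. Of 14 genes of S phase kinases and G1/S control, 8 rose in knockout gels and 0 fell, and 3 rose and 2 fell in knockout monolayers. This list holds an inhibitor as well as drivers. CDKN1A, the inhibitor p21, rose in gels (log2 0.33, edgeR adjusted p = 5.51e-05). CDKN1A also rose in knockout monolayers (log2 0.63, edgeR adjusted p = 7e-10). Of 15 checkpoint genes 6 rose in gels, and in monolayers 0 rose and 4 fell. ATR, the kinase that senses stalled forks, had a log2 fold change of 0.28 in gels (edgeR adjusted p = 0.0117) and -0.33 in monolayers (edgeR adjusted p = 0.00468). Of 14 further chromatin genes 7 rose in gels and 0 passed in monolayers, with DNMT1, the methyltransferase that UHRF1 recruits, at log2 0.27 in gels (edgeR adjusted p = 9.72e-05). Only 17 of 53 histone genes passed the filter on low counts. Of these 6 rose in gels and 4 in monolayers, with medians of 0.63 and 0.69 over the 17. H1-2, a linker histone, rose by log2 0.90 in gels (edgeR adjusted p = 1.25e-12) and 0.98 in monolayers (edgeR adjusted p = 5.16e-12). Most messages of this kind lack a poly(A) tail, and these libraries were selected for one, so their levels are partial.

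Genes of G2 and mitosis, which mark cells past S phase, also rose in knockout gels, 21 of 31 with a median log2 of 0.16, beside 11.5% of all tested genes. In monolayers 4 rose and 7 fell, with a median of -0.02, beside 9.6% of all tested genes in each direction. Their summed level was 6585 and 6721 CPM in knockout gels and 5951 and 5998 CPM in control gels. It was 5210 and 5265 CPM in knockout monolayers and 5437 and 5451 CPM in control monolayers, so the knockout was lower on plastic and higher in gels. The summed level of the 52 replication genes was 6667 and 6718 CPM in knockout gels, against 5833 and 5827 CPM in control gels, and 5203 and 5087 CPM in knockout monolayers, against 4827 and 4801 CPM in control monolayers. The knockout was higher for these in both cultures. MKI67, a marker of cycling cells, had 595 and 610 CPM in knockout gels, above 457 and 486 CPM in control gels, and 361 and 368 CPM in knockout monolayers, below 463 and 417 CPM in control monolayers. Its interaction was log2 0.63 (edgeR adjusted p = 7.15e-08).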

How the data were processed

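RNA from 8 libraries of MDA-MB-231 cells was measured with a stranded poly(A) kit, per the labels' protocols. The authors deposited raw counts per gene symbol. Per the submitters' processing notes, they used FastQC 0.11.9, STAR 2.7.9a, featureCounts (version not given), R 4.1.1 and build hg38. The annotation, and whether counting used strand, are not given in these sources.

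From these counts, with R 4.3.3, genes were filtered by filterByExpr (minimum count 10, which kept 99.9% of counts), scaled by TMM and fitted in edgeR 4.0.16 as 4 group means (quasi-likelihood, robust, two-sided, Benjamini-Hochberg over 15568 genes, threshold 0.05). There were 4 residual degrees of freedom and a biological coefficient of variation of 4.03%. The p-values and SEs also draw on the spread of other genes. Each SE is the log2 fold change divided by the square root of the F statistic. It comes from the fit of all libraries and is not the spread of the 2 groups alone. The procedure was tested on simulated data with planted changes larger than most of those reported here. That test therefore does not cover changes of the size seen in most members. Alternatives included DESeq2 1.42.0, other scaling factors, no filter, a replicate block, length and GC correction, and leaving out each library.

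Members and lists were chosen with earlier results of these data known. Values in each library are given for the members with the smallest adjusted p in each comparison and the largest knockout effect in gels of each role, and further members are named as contrasts after their values were seen. Of each list of other genes, a gene among the 2 with the smallest adjusted p for knockout against control in gels is named. It is not always the gene with the smallest. Exon lengths and overlaps come from GENCODE 29 on GRCh38. Promoter windows come from RefSeq.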

Additional observations from a re-analysis of the deposited data

Results flagged for a closer look

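For 3 of 52 members the knockout effect differed between gels and monolayers by edgeR's test of the interaction. Over all tested genes 6.6% passed this test in either direction, so the count does not set the members apart. The difference, in gels minus in monolayers, was log2 0.396 for POLA1, 0.325 for CLSPN and 0.306 for RFC4. The adjusted p over the alternatives ran from 0.00243 to 0.130 for POLA1, from 0.000321 to 0.122 for CLSPN and from 0.00459 to 0.143 for RFC4.

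The signed log2 effect was higher in gels for 8 of 31 genes of G2 and mitosis and 4 of 15 checkpoint genes. The same held for 3 of 17 genes of origin licensing and firing. Nucleotide genes gave 2 of 16, chromatin genes 1 of 14, E2F and RB genes 1 of 11 and tested histone genes 0 of 17. Of 18 fork genes, 2 had a higher and 1 a lower log2 effect in gels. So did 2 and 1 of 14 genes of S phase kinases and G1/S control. Beside these stand 2.67% of all tested genes with a higher log2 effect in gels and 3.94% with a lower one. In 5 genes named above, the difference was log2 0.619 for ATR, 0.625 for MKI67, 0.347 for SAMHD1, 0.280 for DNMT1 and -0.299 for CDKN1A. CDKN1A rose in knockout cells in both cultures, and more on plastic.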

How the results depend on the processing

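No member that passed changed sign under any alternative. Of the members called in the knockout comparisons, 13 of 32 in gels and 5 of 14 in monolayers passed under all 16 alternatives, as did 41 of 47 and 29 of 39 for gels against monolayers in knockout and control cells. Leaving out each library in turn gave 16 to 37 members higher in knockout gels (median log2 0.16 to 0.22) and 7 to 14 higher and 0 to 2 lower in knockout monolayers (median 0.042 to 0.11). It gave medians of 0.35 to 0.39 for gels against monolayers in knockout cells, and 0.26 to 0.30 with 0 to 1 lower in control cells. For the interaction it gave 0 to 5 higher and 0 to 1 lower (median 0.075 to 0.16).

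DESeq2 called 9 members higher in knockout monolayers. There 1 member was lower with upper-quartile factors, library size alone, no filter or only the 2 groups compared, and 2 with the length and GC correction, which gave a median of 0.044. For gels against monolayers, upper-quartile factors, library size alone and the length and GC correction gave medians of 0.32, 0.31 and 0.32 in knockout cells and 0.23, 0.19 and 0.22 in control cells, with 1 member lower in control cells under library size alone and under the correction. The correction gave an interaction with 1 member lower and a median of 0.15. Uncalled interactions that changed sign were ORC1 (0.013 with the correction, -0.071 to 0.015 leaving out libraries), CDT1 (-0.0028 with upper-quartile factors, -0.064 to 0.095), CCNE2 (-0.041 to 0.091) and E2F2 (-0.069 to 0.19). The causes were not tested.

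Same-numbered libraries had deviations correlated at -0.063 to 0.082, so the numbers were not taken as pairs. With a replicate block, 14 members were higher and 2 lower in knockout monolayers, 33 were higher in knockout gels, and the interaction had 4 higher and 1 lower.

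Over all genes, DESeq2 called 1835 genes in monolayers and 2479 in gels between knockout and control, against 2989 and 3721 by edgeR. It called 2431 between gels and monolayers in control cells, against 4158, and 678 for the interaction, against 1028. Leaving out libraries gave as few as 1848, 2106, 2144 and 413. No member with a log2 change under 0.13 passed in a knockout comparison at this depth and replication.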

Other observations

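Of 23 members with the E2F letters in a promoter window, 15 rose in knockout gels and 4 in knockout monolayers, with a median log2 fold change of 0.18 in gels. Over all tested genes 11.5% rose in gels and 9.6% in monolayers. Of 22 members with a window that lacks them, 13 rose in knockout gels and 7 in knockout monolayers, with a median of 0.19 in gels. The difference between the classes was not tested.

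Fold changes moved with gene length. Across 12567 protein-coding genes, Spearman's rho of the knockout effect with exon length was -0.0784 in gels and -0.258 in monolayers, and rho with GC content was -0.125 in gels and 0.162 in monolayers. The members' median exon length was 3244.5 bases, against 3765 bases over those genes. With length and GC content corrected, the members' median knockout effect in monolayers was 0.04.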
